A study of Mus musculus with 8 samples.

Results

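The 44 genes described here make, recycle or use glutathione, remove peroxides and superoxide, or attach glutathione or sulfate to other molecules. They were taken by symbol from a fixed list out of 55335 genes in the deposited tables: 17 glutathione transferases, 12 genes made up of Nrf2 (gene Nfe2l2), Keap1 and their targets, 10 peroxidases and dismutases, 4 sulfotransferases, and the cytochrome P450 gene Cyp2f2. RNA was sequenced from mouse prostate epithelium sorted, per the series' design text, as EpCAM+, CD24a+ and CD49f-low cells. The 2 genotypes are named PP and PPK here, and PPK mice differed from PP mice by carrying Kmt2cPC-/-. No wild-type group was used here. Each genotype was profiled as sham at 3.5 months and as ADT at 6.5 months of age, with 2 libraries (A and B) per group. ADT usually stands for androgen deprivation therapy, and how it was done is not in the labels, nor is the driver of the Kmt2c deletion. Treatment and age changed together and cannot be told apart, so each ADT difference is one of ADT with age.

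Glutathione is a small peptide that cells use as their main soluble reducing agent. Glutamate-cysteine ligase, built of a catalytic subunit (Gclc) and a modifier subunit (Gclm), catalyses its rate-limiting first step, and glutathione synthetase (Gss) completes it. Glutathione reductase (Gsr) and thioredoxin reductase (Txnrd1) restore the reduced forms with NADPH, which G6pdx and Pgd supply in the pentose phosphate pathway. Glutathione transferases couple glutathione to reactive molecules, and peroxidases and peroxiredoxins use glutathione or thioredoxin to reduce peroxides. The transcription factor Nrf2 is held at low protein level by Keap1 and, when released by oxidants or electrophiles, activates many of these genes through antioxidant response elements in their promoters. The protein level of Nrf2 is therefore not read from its RNA. In human prostate cancer, silencing of GSTP1 by promoter methylation is a classic change.

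Promoter windows from RefSeq (GRCm38.p6, 250 bases before to 50 after a start site) were found for 39 of the 44 genes. Gsta4, Gclc, Gsr, Gstt2 and Prdx6 had no window and were not searched. The core of the antioxidant response element, searched as TGACNNNGC on both strands, was present in 11 of the 39 (28.2%), beside 14.0% of 27025 genes and 12.4% of 32851 windows. The 6 sites in the group of Nrf2, Keap1 and their targets are shown because these genes went in opposite directions between PPK ADT and PP ADT, as described further on. Each is printed 5′ to 3′ on the strand that reads the core, with the core in capitals.
G6pdx: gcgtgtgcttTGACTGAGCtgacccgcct
Pgd: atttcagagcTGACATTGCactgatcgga
Srxn1: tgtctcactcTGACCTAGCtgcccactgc
Txnrd1: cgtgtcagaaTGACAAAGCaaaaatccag
Gclm: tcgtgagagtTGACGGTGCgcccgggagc
Nfe2l2: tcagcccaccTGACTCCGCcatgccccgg
The G6pdx site lies at chrX:74428919-74428947 on the plus strand of the genome. The other sites are on the minus strand, at chr4:149166061-149166089 (Pgd), chr2:152105542-152105570 (Srxn1), chr10:82859104-82859132 (Txnrd1), chr3:122245413-122245441 (Gclm) and chr2:75704885-75704913 (Nfe2l2). A match describes the letters only and does not show that Nrf2 binds there.

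Levels are FPKM, fragments scaled to gene length and library size, so levels of different genes can be set side by side. Differences are differences of mean log2(FPKM + 1) with SE, fitted with limma, which understate the change of low genes. A gene passed when its Benjamini-Hochberg adjusted p over the 14000 genes tested (at least 1 FPKM in at least 2 libraries) was under 0.05. The labels do not say that A and B are separate mice, so p-values measure only the spread between these libraries. Depth is unknown because the tables hold no counts. Libraries of a group correlated at 0.986 to 0.989 across genes, and libraries of different groups at 0.805 to 0.958. Kmt2c was lower in PPK by 0.63 ± 0.066 in sham mice (8.41 against 13.6 FPKM, limma adjusted p = 0.000795) and by 0.53 ± 0.066 in ADT mice (6.48 against 9.83 FPKM, limma adjusted p = 0.00054). It was reduced but not absent.

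The sorted antigens Epcam (309.8 to 565 FPKM) and Cd24a (316 to 551 FPKM) were high in all 8 libraries, while the luminal markers were not equal between groups. The summed level of the 10 epithelial and luminal markers was 1916 and 1942 FPKM in PPK ADT against 4963 to 5969 in the other 6 libraries, and 8 of the 10 were lower in PPK ADT than PP ADT. Basal markers summed to 5755 and 5823 FPKM in PPK ADT against 821 to 1337 elsewhere, and squamous markers to 3148 and 3211 against 478 to 765. Of those markers 6 of 7 and 8 of 8 tested were higher in PPK ADT than PP ADT. Seminal vesicle genes summed to 1273 and 1277 FPKM in PP sham and 569 and 564 in PPK sham, against 0.953 to 6.67 in the ADT libraries. Macrophage markers summed to 65.2 and 65.5 FPKM in PP sham, 133 and 135 in PPK sham, 136 and 145 in PP ADT and 52.8 and 54.2 in PPK ADT, with the defining genes Csf1r and Adgre1 under 0.61 FPKM. Urothelial markers summed to 115 and 112 FPKM in PP sham, 26.6 and 23.7 in PPK sham, 93.3 and 95.8 in PP ADT and 13.2 and 13.8 in PPK ADT. Neutrophil markers summed to 0.216 and 0.525 FPKM in PP sham and 13.9 and 14.4 in PPK ADT, with 4.49 to 6.11 in the other libraries, and smooth muscle markers were at 11.96 and 11.89 in PPK ADT against 1.80 to 5.94 elsewhere. Fibroblast markers reached 31.0 and 32.4 FPKM in PPK ADT against 4.68 to 19.0 elsewhere, and erythroid markers 20.8 and 25.1 against 7.55 to 13.3. Lymphocyte markers stayed under 1.37 FPKM. These markers moved with the groups, and their part in the results was not tested. In such bulk RNA, fewer cells of a type and less RNA per cell cannot be told apart.

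Of the 44 genes, 41 were tested. Mgst2 (0.0223 to 1.15 FPKM) and Sult1a1 (0.147 to 0.902 FPKM) fell under the filter, and Sult1d1 was listed at 0 in all 8 libraries. Together the 44 genes made up 0.572 to 0.600% of the summed FPKM in the sham libraries, 0.805 and 0.823% in PP ADT and 0.841 and 0.849% in PPK ADT. The highest mean level over all libraries belonged to Gsto1 (614 FPKM), followed by Cyp2f2 (430.2), Gpx1 (114), Txn1 (105) and Gsta4 (100.5). The 17 glutathione transferases summed to 725 and 728 FPKM in PP sham, 766 and 805 in PPK sham, 833 and 870.2 in PP ADT, and 1318 and 1322 in PPK ADT. For the 10 peroxidases and dismutases the summed level spanned only 412 to 451 FPKM over the 8 libraries.

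**Figure D1:**
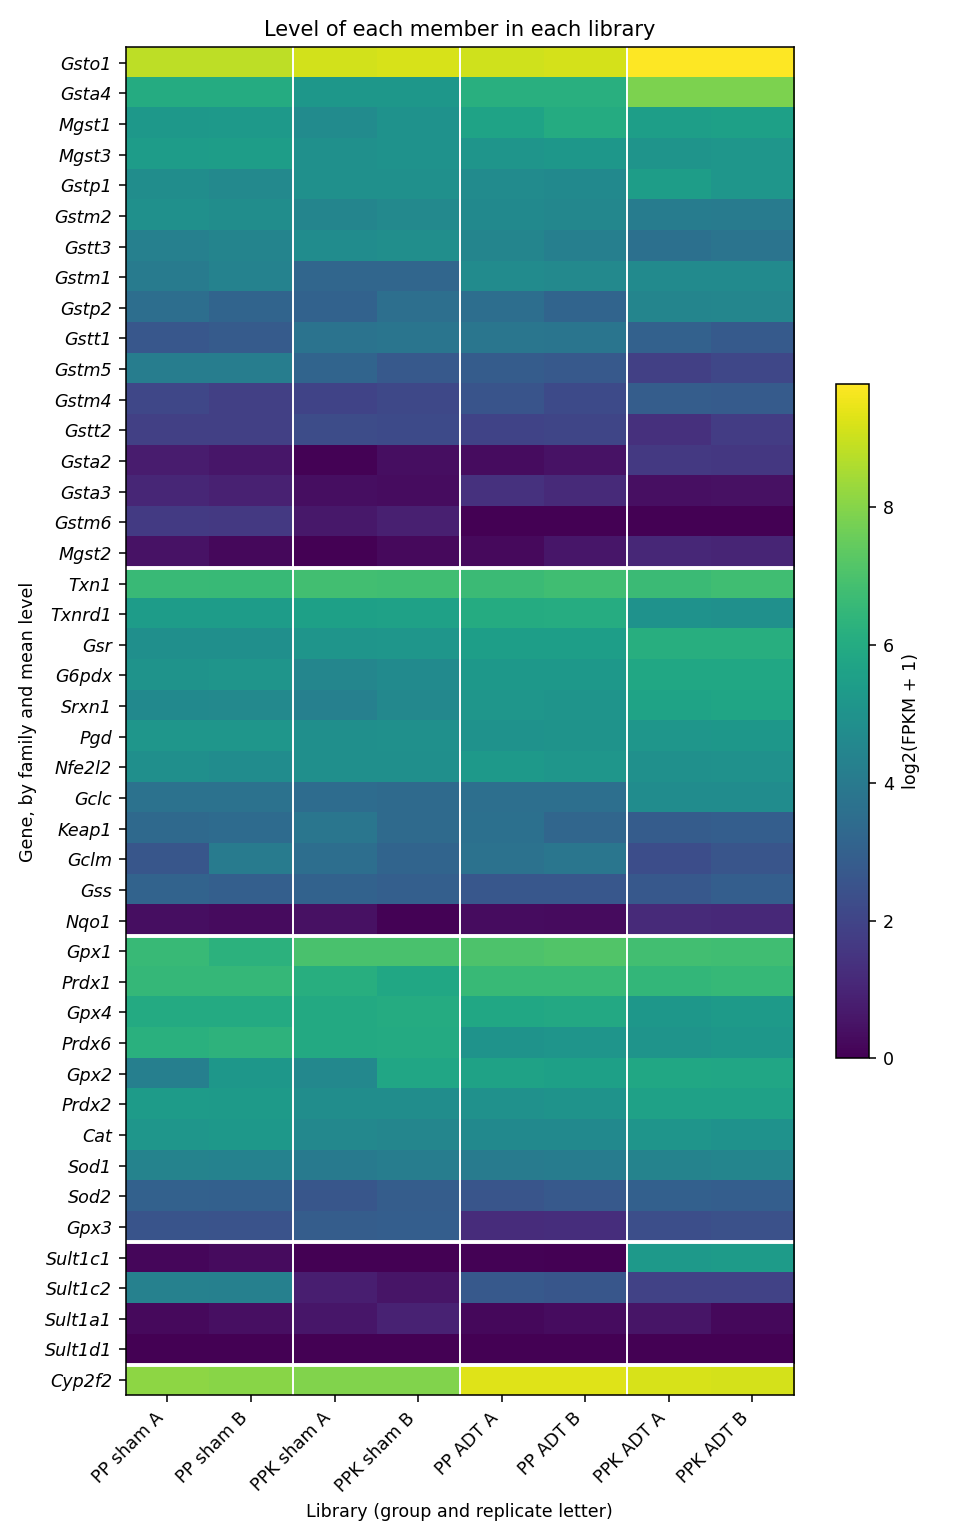
Level of each of the 44 genes (rows, by family and mean level) in each of the 8 libraries (columns), as log2(FPKM + 1) in colour. Gsto1 and Cyp2f2 are bright in every column, Sult1c1 is bright only in the PPK ADT columns (38.3 and 40.4 FPKM), and Sult1d1 is at 0 throughout.

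In sham mice, 8 of the 41 genes were higher and 18 lower in PPK than in PP, and 15 did not pass. In this comparison 28.6% of all genes passed, 13.7% higher and 14.9% lower, and the median difference was -0.22 over the 41 genes and -0.02 over all genes. In ADT mice 17 were higher and 14 lower in PPK, where 59.6% of all genes passed (32.5% higher and 27.1% lower) and both medians were 0.05. For ADT with age in PP, 11 were higher and 13 lower, with 44.2% of all genes passing (19.1% higher and 25.1% lower) and medians of 0.01 and -0.07. For ADT with age in PPK, 21 were higher and 11 lower, with 62.6% of all genes passing (31.9% higher and 30.7% lower) and medians of 0.33 and 0.00. The difference of the genotype effects, ADT minus sham, was positive for 22 and negative for 8, with 52.8% of all genes passing (30.0% positive and 22.8% negative) and medians of 0.40 and 0.09. The counts of the 41 genes, of their families and of the related lists below are to be read against those shares. Of the 41, Gsta2, Nqo1 and Sult1c1 reached 1 FPKM only in PPK ADT, Gstm6 only in PP sham and Gsta3 only in PP, so their calls against those groups follow in part from the filter. Over the other 36 genes, 8 were higher and 15 lower in PPK sham, 14 and 13 in PPK ADT, 11 and 12 after ADT with age in PP, and 18 and 10 after ADT with age in PPK. The difference of the genotype effects was positive for 18 of the 36 and negative for 8. Without PP sham A, and likewise without PPK sham B, the 8 genes higher in PPK sham became 5. With no filter on low values, the 14 lower in PPK ADT became 9. With median-of-ratios scaling, the split after ADT with age in PP was 15 higher and 10 lower in place of 11 and 13.

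Fewer genes passed with a log2 difference of at least 1. In sham mice 1 of the 41 genes was higher and 2 lower by that size, where 3.68% of all genes were (1.96% higher and 1.72% lower). In ADT mice 6 were higher and 2 lower in PPK, beside 17.8% of all genes (9.91% higher and 7.93% lower). For ADT with age in PP it was 2 higher and 5 lower, beside 8.67% (4.29% higher and 4.39% lower). For ADT with age in PPK it was 10 higher and 1 lower, beside 19.7% (10.1% higher and 9.66% lower). The difference of the genotype effects had 9 positive and 3 negative, beside 21.0% (11.3% positive and 9.76% negative). Gsta2 and Sult1c1 are counted here as higher in both PPK ADT comparisons and as positive differences. Gstm6 is counted as lower after ADT with age in PP. All of these met the filter only through the group where they were high, so the counts follow in part from the filter.

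The lowest of the 4 group means was in PPK sham for 19 of the 41 genes, in PPK ADT for 9, in PP sham for 8 and in PP ADT for 5. The highest was in PPK ADT for 17, in PP sham and PP ADT for 9 each, and in PPK sham for 6. Such counts were not made over all genes, so they cannot be read as particular to the 41. Gsta2, Nqo1 and Sult1c1 met the filter only through PPK ADT and Gstm6 only through PP sham, so their highest group was set by the filter. The genotype effects in sham and ADT mice come from separate libraries. Of the 26 genes that passed in sham mice and the 31 that passed in ADT mice, 20 passed in both, which is 76.9% of the first and 64.5% of the second. Over all genes the shares were 75.65% and 36.28%. The direction was the same for 8 of these 20: Gsto1, Gsr and Gpx3 were higher and Gsta3, Gstm2, Gstm5, Sult1c2 and Cyp2f2 lower in PPK both times. The other 12 (60.0%) turned, beside 51.7% of the 3026 genes of any kind that passed in both: Gsta4, Gsta2, Gclc, G6pdx, Pgd, Cat, Prdx2 and Sod1 were lower in PPK sham and higher in PPK ADT, while Gstt1, Gstt3, Txnrd1 and Gpx1 were higher in PPK sham and lower in PPK ADT. For all 12 the difference of both effects passed, and it did so under every alternative in which the gene was tested. Both single calls held under every such alternative for Cat, G6pdx, Gsta4, Gstt1 and Prdx2. Gsta2, among the 12, met the filter only through PPK ADT, so its tests are no support for its higher level there. Gsta3, among the 8, met the filter only in PP, so its calls follow in part from the filter.

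**Figure D2:**
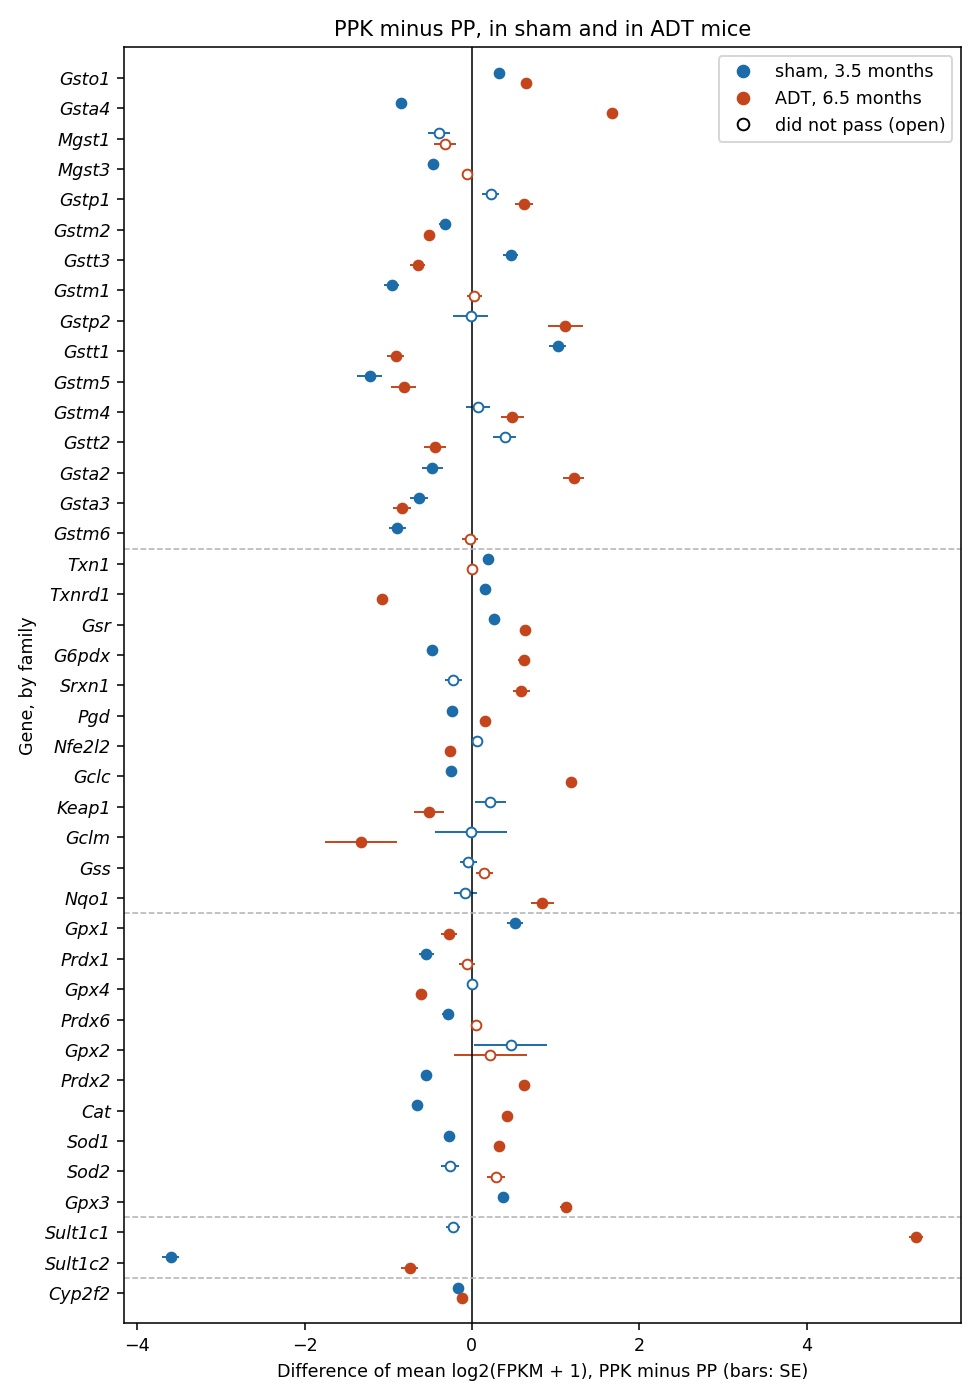
Difference of mean log2(FPKM + 1) between PPK and PP (horizontal axis, bars are SE) for each of the 41 genes tested (rows, families divided by dashed lines), in sham mice (blue) and ADT mice (red), with open points for those that did not pass. Blue and red points lie on opposite sides of 0 for genes such as Gsta4 (-0.85 and 1.68), Gstt1 (1.03 and -0.91) and Cat (-0.65 and 0.42).

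In sham mice 3 of the 16 glutathione transferases tested were higher and 8 lower in PPK, beside 13.7% and 14.9% of all genes. In ADT mice 6 were higher and 6 lower, beside 32.5% and 27.1% of all genes. Gsta4, an alpha-class enzyme with high activity towards the lipid peroxidation product 4-hydroxynonenal, measured 64.1 and 64.5 FPKM in PP sham, 35.2 and 35.2 in PPK sham, 70.9 and 72.2 in PP ADT, and 233 and 229 in PPK ADT. Both PPK ADT libraries exceeded every other library, with basal and squamous markers also highest there (their part was not tested), and both PPK sham libraries were the lowest. The differences between PPK and PP were -0.85 ± 0.026 among sham mice (limma adjusted p = 7.33e-06) and 1.68 ± 0.026 under ADT (limma adjusted p = 6.39e-08). Gsta2, also of the alpha class, was near the floor, at 0.678 and 0.528 FPKM in PP sham, 0.0431 and 0.273 in PPK sham, 0.241 and 0.39 in PP ADT, and 2.12 and 1.99 in PPK ADT. Only the PPK ADT libraries exceeded 1 FPKM, and they alone brought Gsta2 past the filter, so no test of their higher level is given. Of the 50-base stretches of the Gsta2 transcripts 49.8% also occur in other genes, chiefly Gsta1, so its level is uncertain. The lower level of Gsta2 in PPK sham lost its call without PP sham A or B, PPK sham A or either PPK ADT library. With all libraries kept in their groups, 3 further alternatives ended that call (limma adjusted p from 0.052 to 0.0861).

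Gsta4 and Gsta2 lie on chromosome 9 with Gclc, within 601254 bases (77754535 to 78355788, GRCm38). Gsta4 and Gclc had the same pattern, lower in PPK sham and higher in PPK ADT than in PP. Gsta2 had it in its means, but near the floor, and it met the filter only through PPK ADT. Of the 7 other genes tested in that stretch, Gsta1 and Gm3776 were higher and the small nuclear RNA gene Rn7sk lower in PPK ADT, and the other 4 did not pass. Gsta1 and Gm3776 had means of at most 0.0916 and 0.084 FPKM in the other groups, so they too met the filter through PPK ADT. Alpha-class Gsta3, on chromosome 1, measured 1.08 and 0.888 FPKM in PP sham, 0.294 and 0.258 in PPK sham, 1.62 and 1.25 in PP ADT, and 0.334 and 0.374 in PPK ADT. All PPK libraries were below all PP libraries, and Gsta3 reached the filter only in PP.

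The theta-class genes Gstt3, Gstt1 and Gstt2 are neighbours on chromosome 10 (75774115 to 75837424, 63310 bases, with no other tested gene between them). In ADT mice all 3 were lower in PPK, and in sham mice Gstt3 and Gstt1 were higher. Gstt1 measured 5.27 and 6.03 FPKM in PP sham, 12.1 and 13.0 in PPK sham, 13.3 and 12.9 in PP ADT, and 7.21 and 5.85 in PPK ADT. The PPK sham and PP ADT libraries were thus high, and the PP sham and PPK ADT libraries low. The PPK minus PP difference of Gstt1 was 1.03 ± 0.10 among sham mice (limma adjusted p = 0.000614) and -0.91 ± 0.10 under ADT (limma adjusted p = 0.000311). Gstt3 measured 18.4 and 20.2 FPKM in PP sham, 26.2 and 27.6 in PPK sham, 20.7 and 17.7 in PP ADT, and 11.2 and 12.5 in PPK ADT. Its differences were 0.46 ± 0.089 among sham mice (limma adjusted p = 0.00989) and -0.65 ± 0.089 under ADT (limma adjusted p = 0.000864). Gstt2, at 1.56 to 3.86 FPKM, had differences of 0.39 ± 0.13 in sham mice, which did not pass (limma adjusted p = 0.076), and -0.44 ± 0.13 under ADT (limma adjusted p = 0.0281). The sham call of Gstt3 was lost without PP sham A or PPK sham B, and the ADT call of Gstt2 without PP ADT A or B or PPK ADT A. The Gstt2 call was also lost with no filter on low values (limma adjusted p = 0.0643) and with only the 2 groups compared (0.0838).

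The mu-class genes Gstm5, Gstm6, Gstm2, Gstm1 and Gstm4 form a cluster on chromosome 3 (107895821 to 108044894) and did not move as a block. Gstm5 was highest in PP sham, at 16.9 and 16.8 FPKM, against 7.94 and 5.58 in PPK sham, 6.26 and 5.62 in PP ADT, and 2.66 and 3.23 in PPK ADT. It was lower in PPK in sham mice (-1.22 ± 0.15, limma adjusted p = 0.00156) and under ADT (-0.82 ± 0.15, limma adjusted p = 0.00342), and lower after ADT with age in PP (-1.37 ± 0.15) and PPK (-0.96 ± 0.15). Gstm6 measured 2.13 and 2.06 FPKM in PP sham and 0.558 and 0.793 in PPK sham, and only the PP sham libraries reached the filter of 1 FPKM. In PP ADT library A held 0.0268 FPKM, and Gstm6 was listed at 0 in the other 3 ADT libraries. Gstm7, a gene of the same cluster that is not among the 44, also had its highest mean in PP sham (18.8 FPKM) and stood at 2.46 in PPK sham, 1.17 in PP ADT and 0.706 in PPK ADT. The summed level of the seminal vesicle genes, given above, was likewise highest in PP sham, lower in PPK sham and lowest in the ADT libraries. Their single genes differed, with 4 of 7 tested higher and 3 lower in PPK sham, beside 13.7% and 14.9% of all genes. Any part of these in the Gstm levels was not tested.

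Gstm1 differed from its neighbours. Its levels were 15.7 and 19.1 FPKM in PP sham, 8.45 and 8.43 in PPK sham, 25.4 and 23.2 in PP ADT, and 25 and 24.7 in PPK ADT. The genotypes differed in sham mice (-0.96 ± 0.09, limma adjusted p = 0.000508). The ADT libraries of the genotypes overlapped, with a difference of 0.03 and a 95% interval from -0.19 to 0.25. ADT with age went with a rise of 0.46 ± 0.09 in PP and of 1.45 ± 0.09 in PPK (limma adjusted p = 0.00679 and 1.69e-05). Gstm2, at 15.6 to 28.8 FPKM, was lower in all 4 pairwise comparisons (-0.51 to -0.25), although in sham mice the call was lost without PP sham A or PPK sham A (limma adjusted p = 0.0734 and 0.0628). In PP the ADT call of Gstm2 was lost without PP sham A or PP ADT B (limma adjusted p = 0.108 and 0.106) and with median-of-ratios scaling (0.0754). Gstm4, at 2.64 to 6.43 FPKM, was higher after ADT with age in PPK (0.81 ± 0.14, limma adjusted p = 0.0024).

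The pi-class genes Gstp1 and Gstp2 lie within 10617 bases on chromosome 19 (4035407 to 4046023). Their mouse enzymes correspond to human GSTP1. Gstp2 measured 10.5 and 7.89 FPKM in PP sham, 7.36 and 10.9 in PPK sham, 10.6 and 7.95 in PP ADT, and 20.7 and 21.5 in PPK ADT, where both libraries exceeded all others. The PPK ADT libraries differed from PP ADT by 1.12 ± 0.21 (limma adjusted p = 0.00377) for Gstp2 and by 0.62 ± 0.10 (limma adjusted p = 0.00213) for Gstp1 (23.1 to 42.3 FPKM). In sham mice neither passed (differences of -0.01 and 0.22). Of the 50-base stretches of Gstp2 transcripts 49.1% occur in Gstp1 too, so the 2 levels cannot be parted with confidence.

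Gsto1, an omega-class enzyme with thioltransferase and dehydroascorbate reductase activity, had the highest level of the 44 genes in 6 of the 8 libraries, with Cyp2f2 above it in both PP ADT libraries. Its levels were 452 and 453 FPKM in PP sham, 556 and 582 in PPK sham, 542 and 576 in PP ADT, and 873 and 882 in PPK ADT. It was higher in PPK in sham mice (0.33 ± 0.036, limma adjusted p = 0.000938) and under ADT (0.65 ± 0.036, limma adjusted p = 1.06e-05), and higher after ADT with age in both genotypes (0.30 and 0.62). Among the membrane-bound transferases, Mgst1 (25.5 to 64.5 FPKM) was higher after ADT with age in PP (0.61 ± 0.13, limma adjusted p = 0.0106; lost without PP sham A, where it was 0.0582) and likewise in PPK (0.67 ± 0.13, limma adjusted p = 0.00425), and neither genotype comparison passed. With the replicate block both did (-0.39 in sham and -0.33 in ADT mice, limma adjusted p = 0.0144 and 0.0118), and the ADT difference also passed with median-of-ratios scaling (-0.43, limma adjusted p = 0.0275). Mgst3 (29.4 to 42.8 FPKM) was highest in PP sham and lower in PPK sham (-0.46 ± 0.049, limma adjusted p = 0.000812).

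In the group of Nrf2, Keap1 and their targets, 3 of 12 were higher and 3 lower in PPK sham, beside 13.7% and 14.9% of all genes. In PPK ADT 6 were higher and 4 lower, beside 32.5% and 27.1% of all genes. Nfe2l2, which encodes Nrf2, measured 28.1 and 26.1 FPKM in PP sham, 28.1 and 28.4 in PPK sham, 36.9 and 34.7 in PP ADT, and 29.4 and 29.8 in PPK ADT. It was highest in PP ADT, above PP sham by 0.39 ± 0.049 (limma adjusted p = 0.00101), and lower in PPK ADT than PP ADT by 0.26 (-0.26 ± 0.049, limma adjusted p = 0.0036). Keap1 measured 9.19 and 9.75 FPKM in PP sham, 13.4 and 9.37 in PPK sham, 11.2 and 8.35 in PP ADT, and 6.25 and 6.69 in PPK ADT. It was lowest in PPK ADT, with a difference from PP ADT of -0.52 ± 0.18 (limma adjusted p = 0.0444). That call was lost without PP sham A or B, PP ADT A or either PPK ADT library. With all libraries kept, it was also lost with no filter on low values (limma adjusted p = 0.101) and without the eBayes trend (0.0543).

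Enzymes of glutathione synthesis went apart in PPK ADT. Gclc, the catalytic subunit, measured 11.9 and 11.7 FPKM in PP sham, 10.1 and 9.47 in PPK sham, 10.9 and 10.9 in PP ADT, and 26.3 and 25.8 in PPK ADT, where both libraries exceeded all others. It was higher in PPK ADT than PP ADT by 1.19 ± 0.047 (limma adjusted p = 2.4e-06) and slightly lower in PPK sham than in PP sham (-0.25 ± 0.047, limma adjusted p = 0.0098). Gclm, the modifier subunit, measured 5.17 and 16.0 FPKM in PP sham, 10.6 and 7.95 in PPK sham, 11.9 and 13.5 in PP ADT, and 4.02 and 4.92 in PPK ADT. The PP sham libraries differed widely from each other for Gclm, and the PPK ADT libraries were the lowest. The difference of Gclm between PPK ADT and PP ADT was -1.33 ± 0.43 (limma adjusted p = 0.0355). That call was lost without any 1 of the 4 ADT libraries or either PPK sham library. It was also lost with no filter on low values (limma adjusted p = 0.0884). Gss (5.29 to 7.67 FPKM) passed in neither genotype comparison (95% intervals from -0.28 to 0.20 in sham mice and -0.10 to 0.39 in ADT mice). The sham call of Gclc was lost without PP sham A. It was also lost with only the 2 groups compared in the fit (limma adjusted p = 0.0506).

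G6pdx, Pgd and Gsr, of NADPH supply and glutathione reduction, had their highest means in PPK ADT. For Pgd the mean was only slightly above that of PP sham (34.9 against 33.9 FPKM). Of the NADPH-forming genes outside the 44, Me1 was lowest in PPK ADT (8.19 FPKM), while Idh1 was higher there than in PPK sham. G6pdx, the first enzyme of the pentose phosphate pathway, measured 31.7 and 33.3 FPKM in PP sham, 21.6 and 24.9 in PPK sham, 35.8 and 36.3 in PP ADT, and 55.8 and 56.0 in PPK ADT. It was lower in PPK sham (-0.47 ± 0.066, limma adjusted p = 0.00268) and higher in PPK ADT (0.62 ± 0.066, limma adjusted p = 0.000256), with a rise in PPK after ADT with age of 1.24 ± 0.066. Pgd, a later step of the pathway, turned the same way with small sizes (-0.23 and 0.16) over 28.4 to 35.5 FPKM. The ADT call of Pgd was lost with median-of-ratios scaling (limma adjusted p = 0.165). Gsr was higher in every pairwise comparison: 28.1 and 28.4 FPKM in PP sham, 33.7 and 34.8 in PPK sham, 43.9 and 44.1 in PP ADT, and 69.0 and 69.0 in PPK ADT. The groups of Gsr did not overlap, and its genotype difference was 0.27 ± 0.031 in sham mice and 0.64 ± 0.031 under ADT (limma adjusted p = 0.00122 and 6.16e-06).

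On the thioredoxin side the reductase and sulfiredoxin went apart. Txnrd1, thioredoxin reductase, measured 41.8 and 41.5 FPKM in PP sham, 46.1 and 47.0 in PPK sham, 64.5 and 65.0 in PP ADT, and 31.0 and 29.4 in PPK ADT. It rose after ADT with age in PP (0.62 ± 0.036, limma adjusted p = 2.59e-05) and fell in PPK (-0.61 ± 0.036, limma adjusted p = 1.29e-05), so that PPK ADT stood 1.08 below PP ADT (-1.08 ± 0.036, limma adjusted p = 1.09e-06). The small sham difference of Txnrd1 (0.16) lost its call without any 1 of the 4 sham libraries. That call was also lost without the eBayes trend (limma adjusted p = 0.0724). Srxn1, sulfiredoxin, which repairs over-oxidized peroxiredoxins, measured 24.0 and 23.5 FPKM in PP sham, 18.0 and 22.8 in PPK sham, 34.8 and 32.7 in PP ADT, and 49.6 and 53.0 in PPK ADT. It was higher in PPK ADT than PP ADT by 0.59 ± 0.10 (limma adjusted p = 0.00273). Txn1, thioredoxin itself, measured 98.4 and 96.9 FPKM in PP sham, 113 and 110.0 in PPK sham, 101 and 109 in PP ADT, and 100 and 110.4 in PPK ADT. It was higher in PPK sham (0.19 ± 0.055, limma adjusted p = 0.044), a call lost without any 1 of the 4 sham libraries. With all libraries kept, 5 other alternatives also ended that call (limma adjusted p from 0.0517 to 0.104). The PPK ADT against PP ADT difference of Txn1 was 0.00, and -0.24 with quantile normalization (limma adjusted p = 0.00651). Nqo1, a quinone reductase often used as a marker of Nrf2 activity, was near the floor in 6 libraries (0.0347 to 0.369 FPKM) and stood at 1.25 and 1.19 in PPK ADT, the group that alone brought it past the filter.

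Of the 6 genes whose printed windows hold the antioxidant response element core, G6pdx, Pgd and Srxn1 were higher and Txnrd1, Gclm and Nfe2l2 lower in PPK ADT than PP ADT. Of the 5 other genes with the core, Sod1 was higher and Gsta3 and Gstm5 were lower there, and Mgst1 and Prdx1 did not pass. Among the genes with a window, the presence of the core thus did not go with a single direction. Gsta4, Gclc and Gsr, all higher in PPK ADT than PP ADT, had no window and could not be placed.

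**Figure D3:**
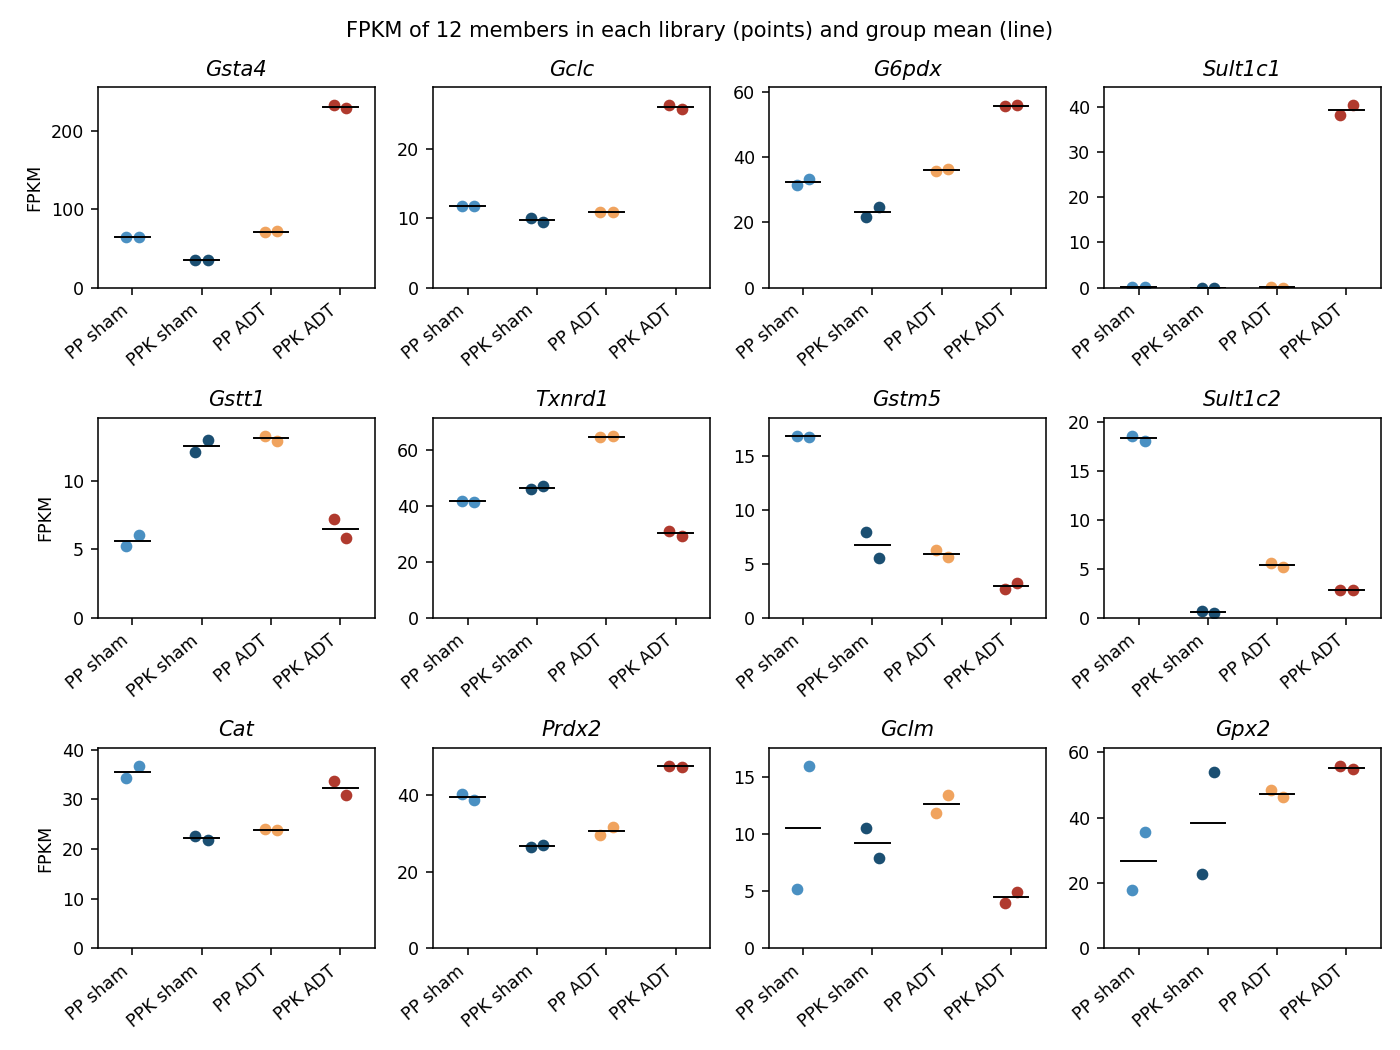
FPKM of 12 of the genes in each library (points, A left and B right) and the mean of each group (line), each panel with its own axis from 0. The PPK ADT points of Gsta4, Gclc, G6pdx and Sult1c1 lie above all others, those of Txnrd1, Gclm and Gstm5 lie below all others, and the sham points of Gpx2 and the PP sham points of Gclm are far apart within a group.

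Of the 10 peroxidases and dismutases, 2 were higher and 5 lower in PPK sham, beside 13.7% and 14.9% of all genes. In PPK ADT 4 were higher and 2 lower, beside 32.5% and 27.1% of all genes. Catalase (Cat), the peroxisomal enzyme that breaks down hydrogen peroxide, measured 34.3 and 36.6 FPKM in PP sham, 22.7 and 21.8 in PPK sham, 24.0 and 23.7 in PP ADT, and 33.7 and 30.9 in PPK ADT. The PP sham and PPK ADT libraries were high and the others low, with no overlap. Its PPK minus PP difference was -0.65 ± 0.056 among sham mice (limma adjusted p = 0.000342) and 0.42 ± 0.056 under ADT (limma adjusted p = 0.00074). Prdx2, a cytosolic peroxiredoxin, had the same pattern at 40.4 and 38.8 FPKM in PP sham, 26.5 and 27.1 in PPK sham, 29.6 and 31.6 in PP ADT, and 47.5 and 47.5 in PPK ADT. Its differences were -0.55 ± 0.043 and 0.62 ± 0.043 (limma adjusted p = 0.000244 and 3.3e-05). Sod1, the cytosolic superoxide dismutase, followed with -0.27 ± 0.054 and 0.32 ± 0.054 over 15.3 to 20.7 FPKM. The sham call of Sod1 was lost without PP sham A or PPK sham A (limma adjusted p = 0.0615 and 0.0519).

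Prdx6 and Gpx3 were lower after ADT with age in both genotypes. Prdx6, a peroxiredoxin that reduces phospholipid hydroperoxides with glutathione, measured 72.7 and 78.6 FPKM in PP sham, 60.8 and 62.4 in PPK sham, 31.2 and 33.5 in PP ADT, and 32.1 and 35.2 in PPK ADT. All 4 ADT libraries were below all 4 sham libraries, with differences of -1.20 ± 0.062 in PP (limma adjusted p = 1.62e-05) and -0.85 ± 0.062 for PPK (limma adjusted p = 3.65e-05). Gpx3, the secreted glutathione peroxidase, measured 4.82 and 4.75 FPKM in PP sham, 6.42 and 6.61 in PPK sham, 1.36 and 1.43 in PP ADT, and 4.11 and 4.31 in PPK ADT. It was lower after ADT with age in PP (-1.27 ± 0.065, limma adjusted p = 1.55e-05) and PPK (-0.53 ± 0.065, limma adjusted p = 0.000468), and higher in PPK both in sham mice (0.38 ± 0.065) and under ADT (1.12 ± 0.065).

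Among the other glutathione peroxidases, Gpx1, the main cytosolic form, measured 96.8 and 77.1 FPKM in PP sham, 124 and 124 in PPK sham, 130.3 and 138 in PP ADT, and 111 and 111 in PPK ADT. It was higher in PPK sham (0.51 ± 0.096, limma adjusted p = 0.00892), but not with only the 2 groups compared in the fit (limma adjusted p = 0.0543). Its lower level in PPK ADT (-0.27 ± 0.096, limma adjusted p = 0.0464) lost the call without either PPK sham library or any 1 of the 4 ADT libraries. The ADT call was also lost with the replicate block (limma adjusted p = 0.0577), with no filter on low values (0.107) and without the eBayes trend (0.0704). Gpx4, which reduces lipid hydroperoxides in membranes, stood at 55.2 to 64.3 FPKM in 6 libraries and at 35.5 and 38.8 in PPK ADT, lower than in PP ADT by 0.61 (-0.61 ± 0.058, limma adjusted p = 0.000146). Of the 50-base stretches of Gpx4 transcripts 34.7% occur in a pseudogene as well. Gpx2, an epithelial form, passed in no comparison and its sham libraries lay far apart within each group: 17.8 and 35.4 FPKM in PP sham and 22.6 and 54.1 in PPK sham. Prdx1 measured 90.8 and 90.8 FPKM in PP sham, 68.9 and 55.6 in PPK sham, 94.9 and 95.3 in PP ADT, and 88.5 and 94.3 in PPK ADT. Only the PPK sham libraries of Prdx1 were low (-0.54 ± 0.092, limma adjusted p = 0.00588). The mitochondrial dismutase Sod2 (4.99 to 7.13 FPKM) passed in neither genotype comparison.

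**Figure D4:**
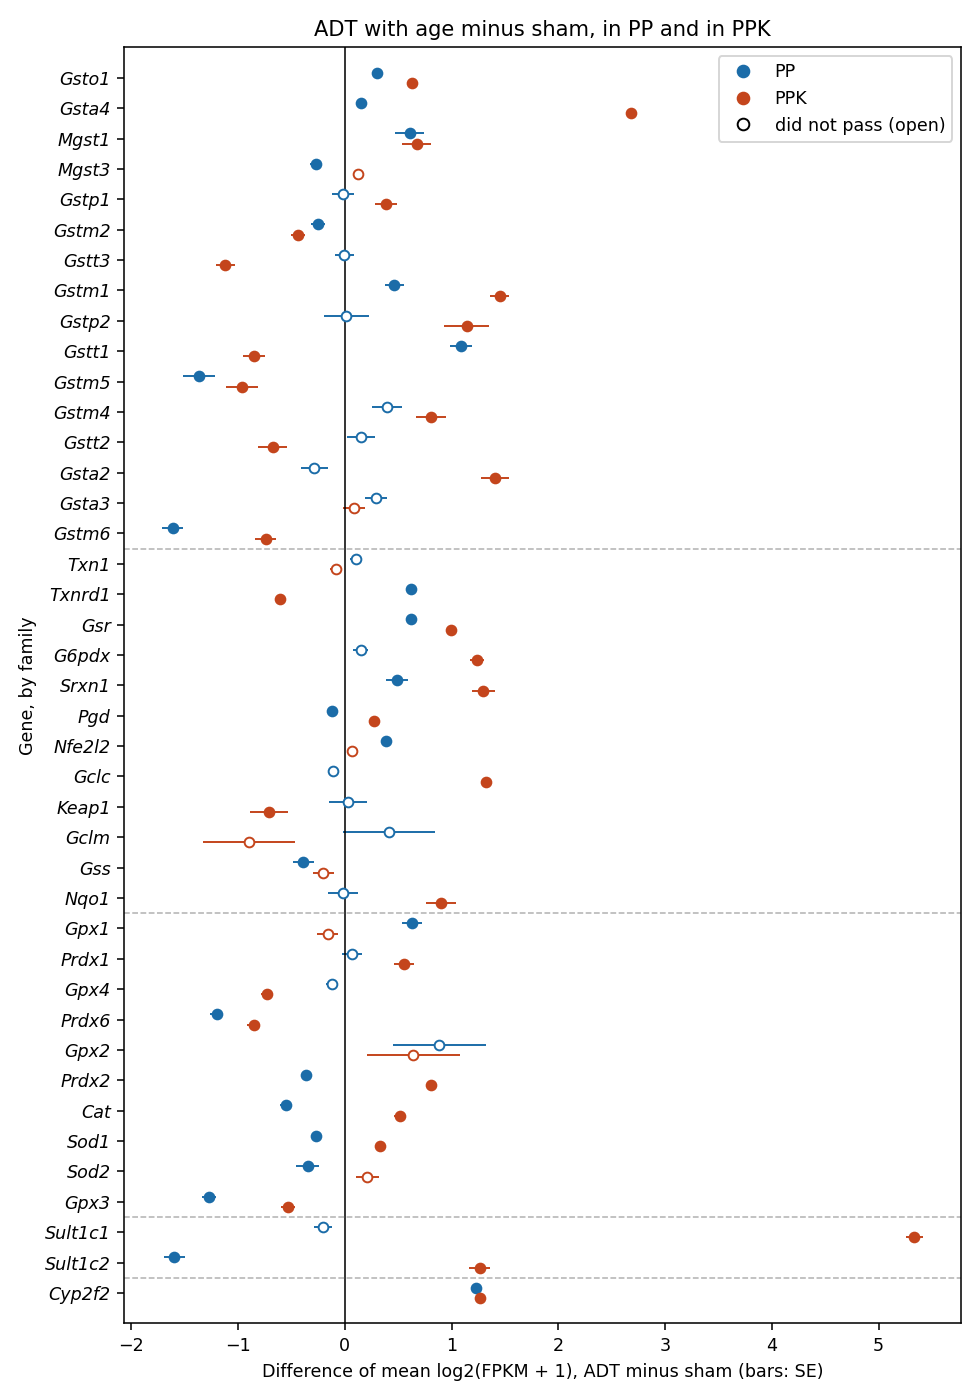
Difference of mean log2(FPKM + 1) between ADT with age and sham (horizontal axis, bars are SE) for each of the 41 genes tested (rows, families divided by dashed lines), in PP (blue) and likewise in PPK (red), with open points for those that did not pass. Prdx6 lies left of 0 in both genotypes (-1.20 and -0.85), Cyp2f2 right of 0 in both (1.23 and 1.27), and Txnrd1 right in PP (0.62) and left in PPK (-0.61).

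The ADT effects in PP and PPK also come from separate libraries. Of 24 genes that passed in PP and 32 in PPK, 19 passed in both (79.2% of the first and 59.4% of the second). Over all genes the shares were 74.08% and 52.28%. Of the 19 genes, 12 had the same direction and 7 (36.8%) turned, beside 34.05% of the 4582 genes of any kind that passed in both. Cat, Prdx2, Sod1, Pgd and Sult1c2 fell in PP and rose in PPK, and Gstt1 and Txnrd1 rose in PP and fell in PPK. The difference of the ADT effects is the same quantity as the difference of the genotype effects, and it passed for all 7. These genes were picked by opposite calls, so that is no separate support for the turn. The fall of Pgd in PP (-0.12) lost its call without any 1 of the 4 PP libraries, and with median-of-ratios scaling it was -0.04 (limma adjusted p = 0.379). Without the eBayes trend the call was lost too (limma adjusted p = 0.0878).

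Sulfotransferases transfer sulfate from an activated donor to phenols, steroids and amines. The 2 that were tested, Sult1c1 and Sult1c2, lie on chromosome 17 within 161038 bases (53829637 to 53990674). Sult1c1 measured 0.128 and 0.214 FPKM in PP sham, was listed at 0 in both PPK sham libraries, and measured 0.0332 and 0 in PP ADT. In PPK ADT it measured 38.3 and 40.4 FPKM. Those 2 libraries alone brought Sult1c1 past the filter, so no test of their higher level is given. No fold against PPK sham is given either, since both its libraries are at 0. Of the transcripts' 50-base stretches none occurs in another gene. The PPK ADT libraries also had the highest basal and squamous marker sums, whose part in this difference was not tested. Sult1c2 measured 18.6 and 18.1 FPKM in PP sham, 0.752 and 0.453 in PPK sham, 5.60 and 5.20 in PP ADT, and 2.84 and 2.81 in PPK ADT. The PP sham libraries were the highest and the PPK sham libraries the lowest, without overlap of any groups. Sult1c2 was lower in PPK in sham mice (-3.60 ± 0.10, limma adjusted p = 5.03e-06) and under ADT (-0.74 ± 0.10, limma adjusted p = 0.000767), fell in PP after ADT with age (-1.60 ± 0.10) and rose in PPK (1.26 ± 0.10).

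The promoter windows of this pair are shown because Sult1c1 stood higher and Sult1c2 lower in PPK ADT than in PP ADT. Against PPK sham both stood higher in PPK ADT. The 250 bases upstream of each start site (RefSeq, GRCm38.p6, both on the minus strand, printed 5′ to 3′) are at chr17:53990632-53990881 for Sult1c1 and chr17:53845959-53846208 for Sult1c2. Capitals mark an AP-1 site, searched as TGANTCA on both strands.
Sult1c1: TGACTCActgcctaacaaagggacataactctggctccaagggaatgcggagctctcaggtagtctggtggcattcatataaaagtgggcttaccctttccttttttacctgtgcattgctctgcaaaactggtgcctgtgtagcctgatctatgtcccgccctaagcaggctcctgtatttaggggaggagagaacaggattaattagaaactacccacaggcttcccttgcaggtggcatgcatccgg
Sult1c2: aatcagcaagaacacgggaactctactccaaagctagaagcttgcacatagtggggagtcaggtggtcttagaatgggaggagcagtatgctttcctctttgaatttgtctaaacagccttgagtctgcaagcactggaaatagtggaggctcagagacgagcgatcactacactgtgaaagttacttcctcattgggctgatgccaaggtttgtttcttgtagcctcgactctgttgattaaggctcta
The AP-1 letters were found at the far end of the Sult1c1 window and not in that of Sult1c2. They occur in 7 of the 39 genes with a window (17.95%), beside 8.97% of all genes. Counted by window, 7.81% of all windows hold them.

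Cyp2f2, a cytochrome P450 known from mouse lung club cells, where it activates naphthalene, was second only to Gsto1 in mean level. It measured 278 and 260.3 FPKM in PP sham, 240.4 and 240.4 in PPK sham, 625 and 638 in PP ADT, and 589 and 571 in PPK ADT. All 4 ADT libraries were more than 2 times any sham library. ADT with age went with a rise of 1.23 ± 0.036 in PP (limma adjusted p = 1.49e-06) and 1.27 ± 0.036 for PPK (limma adjusted p = 4.4e-07), and the difference of these effects was 0.04 with a 95% interval from -0.08 to 0.16. With quantile normalization it turned to -0.23 and passed (limma adjusted p = 0.00934). The genotype differences were small (-0.16 in sham mice and -0.12 in ADT mice). The sham call was lost without PP sham A or either PPK sham library, and the ADT call without PP ADT A, PP ADT B or PPK ADT B. With no filter on low values both calls were lost too (limma adjusted p = 0.0516 in sham and 0.0612 in ADT mice). Both were also lost without the eBayes trend (limma adjusted p = 0.082 and 0.102).

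Other genes of these pathways, in lists that hold none of the 44, are given by counts. Over all genes 13.7% were higher and 14.9% lower in PPK sham, and 32.5% and 27.1% in PPK ADT. Each count of a list is to be read beside these shares. Of 21 further Nrf2 targets tested, 3 were higher and 4 lower in PPK sham, and 6 higher and 7 lower in PPK ADT. In PPK ADT against PP ADT, Me1, the NADPH-forming malic enzyme, stood at 8.19 against 27.5 FPKM (-1.63 ± 0.043, limma adjusted p = 4.02e-07). Entpd5, an endoplasmic reticulum nucleotidase gene, was higher (6.46 against 2.31 FPKM, 1.17 ± 0.15, limma adjusted p = 0.00061). The aldo-keto reductase gene Akr1b8 stood at 29.2 against 69.4 FPKM (-1.22 ± 0.054) and the ferritin heavy chain gene Fth1 at 45.3 against 89.0 (-0.96 ± 0.047). Idh1, which forms NADPH from isocitrate, was lower in PPK sham (51.9 against 101.1 FPKM, -0.95 ± 0.053) and rose to 161.7 FPKM in PPK ADT (1.62 ± 0.053 over PPK sham). Of 13 Nrf2 partners and regulators, 2 were higher and 7 lower in PPK ADT, among them the small Maf gene Mafk (75.2 against 121.0 FPKM, -0.68 ± 0.033), while the repressor gene Bach1 was higher (31.9 against 25.3 FPKM, 0.32 ± 0.05).

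Of 10 tested genes that produce or help to produce oxidants, 7 were higher and none lower in PPK sham, beside 13.7% and 14.9% of all genes. In PPK ADT 4 were higher and 6 lower, beside 32.5% and 27.1% of all genes. Noxo1 and Noxa1, organizer and activator of NADPH oxidase 1, stood at 1.58 against 21.1 FPKM (-3.11 ± 0.092) and at 0.212 against 8.41 (-2.96 ± 0.092) in PPK ADT against PP ADT. Cyba, the shared oxidase subunit, stood at 14.6 against 73.1 FPKM (-2.25 ± 0.072). Cybb, the phagocyte oxidase subunit, was higher (42.1 against 6.86 FPKM, 2.46 ± 0.085). Macrophage markers summed to 52.8 and 54.2 FPKM in PPK ADT against 136 and 145 in PP ADT, with 1 of 7 tested higher and 5 lower. Of that list, Csf1r and Adgre1 were at 0.301 to 0.552 FPKM in the same libraries. Neutrophil markers summed to 13.9 and 14.4 FPKM in PPK ADT against 5.04 and 5.09 in PP ADT, with 2 of 2 tested higher. The part of either marker list was not tested.

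Of 20 tested thioredoxin, glutaredoxin and further peroxiredoxin genes, 2 were higher and 3 lower in PPK sham, beside 13.7% and 14.9% of all genes. In PPK ADT 10 were higher and 5 lower, beside 32.5% and 27.1% of all genes. Sesn2, a stress-induced regulator of peroxiredoxin repair, stood at 44.5 against 13.5 FPKM in PPK ADT against PP ADT (1.65 ± 0.051, limma adjusted p = 7.87e-07). Txnip, which binds thioredoxin, fell after ADT with age in PP (34.0 against 97.2 FPKM, -1.49 ± 0.065) and likewise in PPK (21.6 against 64.9 FPKM, -1.54 ± 0.065). Of 16 tested genes of glutathione supply, transport and turnover, 5 were higher and 5 lower in PPK ADT. Anpep, an aminopeptidase that cleaves the cysteinylglycine of glutathione breakdown, stood at 20.2 against 72.9 FPKM (-1.81 ± 0.038).

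Of 15 tested other conjugation enzymes and sulfate donors, 4 were higher and 7 lower in PPK ADT, beside 32.5% and 27.1% of all genes. The glucuronosyltransferase gene Ugt1a7c stood at 42.7 against 7.10 FPKM (2.45 ± 0.24, limma adjusted p = 0.000175), and Ugt2b34 at 27.6 against 85.1 (-1.59 ± 0.033). Papss1 and Papss2, which make the sulfate donor, were lower in PPK sham (18.9 against 27.7 FPKM and 4.27 against 9.14 FPKM). Of 19 tested cytochrome P450 and other phase I genes, 5 were higher and 6 lower in PPK sham, and 7 higher and 7 lower in PPK ADT. Cyp2b10 was lower in PPK in sham mice (5.56 against 39.2 FPKM, -2.62 ± 0.065) and under ADT (1.36 against 14.1 FPKM, -2.68 ± 0.065). Of 9 tested other glutathione transferases, 3 were higher and 2 lower in PPK sham, and 2 higher and 2 lower in PPK ADT, where Ptges, a prostaglandin synthase, stood at 17.1 against 53.3 FPKM (-1.59 ± 0.055).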

How the data were processed

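Strand-specific TruSeq libraries of Trizol-extracted total RNA were made from sorted prostate epithelium, per the labels' protocols. The authors deposited 1 FPKM table for each of the 8 libraries. FastQC 0.11.2 and mm10 appear in the submitters' processing notes, while aligner, quantifier and gene models were not given in the sources used here. Organoids were not analysed here. Tables were joined on 55335 identifiers, and GENCODE M21 (GRCm38) gave symbols to 55154. None of 10 housekeeping genes checked was at 0. Log2(FPKM + 1) of 14000 genes entered a model of 4 group means (limma 3.58.1, R 4.3.3, eBayes trend, two-sided), after the scripts were tested on simulated data. The fit had 4 residual and 2.4 prior degrees of freedom. Python 3.11.15, pandas 2.3.3, numpy 2.4.6 and matplotlib 3.10.9 made the tables and plots. RefSeq windows were searched for motifs, and transcripts for shared 50-base stretches.

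The 44 genes and all lists were chosen with earlier results of these data known. Values per library were given for genes that passed with an absolute log2 difference of at least 1 in any comparison, the 2 highest of each family, Nfe2l2 and Keap1; other genes by range and counts. From a related list up to 4 genes with the largest differences and at least 5 FPKM in the higher group could be named. Gsr, Gpx2 and the genes of the chromosome 9 stretch were named after their values were seen. Deviations of libraries with the same letter had correlations of -0.008 to 0.057, so A and B were not taken as pairs. Value columns without a sample numbered 0. A part of the genotype common to all groups is not reported here.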

Additional observations from a re-analysis of the deposited data

Results flagged for a closer look

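For 30 genes the genotype effect differed between ADT and sham mice by a test of the difference itself (interaction term, limma adjusted p under 0.05), where 52.8% of all genes tested passed too. The values are the PPK minus PP difference of mean log2(FPKM + 1) in ADT mice minus that in sham mice. Among glutathione transferases it was 2.53 for Gsta4, 1.69 for Gsta2, 1.13 for Gstp2, 0.99 for Gstm1, 0.87 for Gstm6, 0.40 for Mgst3 and 0.32 for Gsto1 (-0.10 with quantile normalization), and it was negative for Gstt1 (-1.94), Gstt3 (-1.11) and Gstt2 (-0.83). Among Nrf2, Keap1 and their targets it was 1.43 for Gclc, 1.09 for G6pdx, 0.92 for Nqo1, 0.81 for Srxn1, 0.40 for Pgd and 0.37 for Gsr, and -1.23 for Txnrd1, -0.74 for Keap1 and -0.32 for Nfe2l2. Among peroxidases and dismutases it was 1.16 for Prdx2, 1.07 for Cat, 0.74 for Gpx3, 0.60 for Sod1, 0.56 for Sod2, 0.49 for Prdx1, 0.35 for Prdx6, -0.79 for Gpx1 and -0.61 for Gpx4. For the sulfotransferases it was 2.86 for Sult1c2 and 5.54 for Sult1c1, the latter a fitted value that rests on PPK sham libraries at 0. Gstm6 is at 0 in both PPK ADT libraries and its value rests on the sham libraries. Gsta2, Nqo1 and Sult1c1 passed the filter only through PPK ADT and Gstm6 only through PP sham, so their values here follow in part from the filter. The calls of Keap1, Gstp2, Prdx1, Prdx6 and Sod2 were each lost without some single library. With no filter on low values those of Keap1, Gstp2 and Prdx1 were lost too (limma adjusted p = 0.11, 0.0516 and 0.0536). The call of Keap1 was also lost without the eBayes trend (limma adjusted p = 0.058), that of Prdx1 with quantile normalization (0.0669) and that of Prdx6 with median-of-ratios scaling (0.0525).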

How the results depend on the processing

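Of 143 calls of single genes over the 5 comparisons, 112 held under every alternative in which the gene was tested, 30 lost the threshold under some and 1 turned direction under some, and of 62 results without a call 29 gained one under some. Leaving out 1 library at a time moved the count of genes higher in PPK sham between 5 and 9 (8 with all libraries). With no filter on low values the count lower in PPK ADT was 9 in place of 14. Quantile normalization turned the difference of genotype effects of Gsto1 (-0.10, limma adjusted p = 0.205) and of Cyp2f2 (-0.23, limma adjusted p = 0.00934) and the PPK ADT against PP ADT difference of Txn1 (-0.24, limma adjusted p = 0.00651), the latter 2 without a call in the unchanged fit. The causes were not tested. With the letters as a replicate block, 7 genes were higher and 18 lower in PPK sham, 17 and 14 in PPK ADT, 11 and 13 after ADT with age in PP, 22 and 11 in PPK, and 23 and 8 for the difference of effects. The block ended the calls of Gsta2 (limma adjusted p = 0.052) and Txn1 (limma adjusted p = 0.0517) in sham mice and of Gpx1 in ADT mice (limma adjusted p = 0.0577). It gave calls to Mgst1 in sham mice (limma adjusted p = 0.0144) and ADT mice (limma adjusted p = 0.0118), to Mgst3 for ADT with age in PPK (limma adjusted p = 0.0202) and to Gstp1 for the difference of effects (limma adjusted p = 0.0197). Every count stayed within 1.5 times with pseudocount 0.1, with genes under a mean of 5 FPKM removed, under median-of-ratios scaling, with only the 2 groups compared in the fit, and without the trend. The depth is unknown, so precision at low FPKM cannot be given.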
